A study of Mus musculus with 16 samples.

Results

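The genes described here are *Arg1*, *Arg2*, *Nos2*, *Slc7a2*, *Ass1* and *Odc1*, which handle arginine and start the synthesis of polyamines. They were taken by gene symbol, and each of the 6 had a row among the 24421 genes counted. The 16 libraries came from transgenic C57BL/6 Kaede mice, 8 to 14 weeks old when sacrificed, that carried subcutaneous MC38-Ova tumours, a mouse colon adenocarcinoma line that expresses ovalbumin. Kaede is a green fluorescent protein that violet light turns red, and the tumours were photoconverted on day 13 after injection. Cells that entered the tumour afterwards were Kaede-green, and cells present since photoconversion were Kaede-red, although these also kept some green signal. Tumours were collected 24h or 72h later, and live CD45+ CD11b+ cells that carried Kaede and lacked TER119 and NK1.1 were sorted. Each colour at each time was 1 group of 4 libraries. All groups carried the control treatment label and 1 batch label, and the study describes the points of this experiment as tumours of independent mice. Whether green and red libraries came from the same tumours was not given in the sources used here. CD11b marks monocytes, macrophages, neutrophils and some dendritic cells, so each library is a mixture, and more cells of a type that expresses a gene cannot be told apart from more RNA of that gene per cell.

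Arginine enters myeloid cells through cationic amino acid transporters such as SLC7A2. It can also be remade from citrulline by argininosuccinate synthase (ASS1) and argininosuccinate lyase. Inducible nitric oxide synthase (NOS2) turns it into nitric oxide and citrulline, whereas the arginases turn it into urea and ornithine, ARG1 in the cytosol and ARG2 in mitochondria. Ornithine decarboxylase (ODC1) then makes putrescine, from which spermidine and spermine are built. In macrophages, *Nos2* is known as a gene of inflammatory activation and *Arg1* as a gene of alternatively activated and tumour-associated cells, and removal of arginine by arginase is a known way in which myeloid cells restrain T cells.

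Total counts were 3650937 to 10823666 per Kaede-green library and 3216858 to 15423085 per Kaede-red library. The ribosomal RNA gene *Rn45s* took 79.05 to 93.4% of them in Kaede-green and 55.81 to 84.87% in Kaede-red libraries. The counts left were 468092 to 912689 and 758192 to 5472477, so the members were counted more precisely in Kaede-red cells. Levels are given as CPM, counts scaled to library size, with TMM factors that are taken from the bulk of the genes. Markers of the sorted population were present in every library, with a summed level of 466.4 to 1949 CPM for the 6 genes *Itgam*, *Ptprc*, *Csf1r*, *Lyz2*, *Adgre1* and *Cd68*. They did not move together. At 24h *Lyz2* averaged 1219 CPM in Kaede-green cells against 347.3 CPM in Kaede-red ones, whereas the macrophage markers *Adgre1* (13.73 against 38.12 CPM), *Cd68* (42.04 against 72.23 CPM) and *Csf1r* (39.42 against 49.24 CPM) had higher means in Kaede-red cells. At 24h *Adgre1* and *Cd68* were called higher in Kaede-red cells and *Lyz2* lower, at 72h 5 of the 6 markers were called higher and none lower, over both times 4 were called higher and 1 lower, and 3 were called higher at 72h than at 24h within Kaede-red cells. The 7 neutrophil markers found, of 8 listed, summed to 9.422 to 14.49 CPM in 3 groups and to 18.85 to 22.99 CPM in Kaede-red cells at 72h. Most of that was *Csf3r* and *Mmp8*, while *S100a8* and *S100a9* stayed at mean levels of 0.1024 to 1.154 CPM in each group and *Retnlg* was at 0 outside Kaede-red cells at 72h. *Csf3r* was called higher in Kaede-red cells at 72h and over both times, and higher at 72h than at 24h within Kaede-red cells. *Mmp8* was not called in any comparison. The 6 fibroblast markers, which the sort should remove, summed at 24h to 40.26 to 52.34 CPM in Kaede-green libraries against 19.94 to 37.38 CPM in Kaede-red ones, and at 72h to 45.49 to 49.86 against 12.05 to 19.19 CPM, with *Lum* at 0 in Kaede-green cells at 24h. Of the 4 fibroblast markers tested, *Col1a1*, *Col1a2* and *Col3a1* were called lower in Kaede-red cells at 72h and over both times. *Pdgfra* was called lower at 72h, and none was called at 24h. *Col3a1* was also called lower at 72h than at 24h within Kaede-red cells. The 4 endothelial markers summed at 24h to 10.59 to 15.98 CPM in Kaede-green libraries against 18.15 to 22.75 CPM in Kaede-red ones, and at 72h to 9.77 to 18.97 against 23.14 to 36.79 CPM. These sums were mostly *Kdr* and *Pecam1*, which were called higher over both times, while *Cdh5* was called lower (1.508 against 0.4831 CPM at 24h and 2.277 against 0.9127 CPM at 72h) and *Vwf* was at 0 in Kaede-green cells at 72h. The 4 genes of dividing cells summed at 24h to 29 to 47.91 CPM in Kaede-green libraries against 22.49 to 54.62 CPM in Kaede-red ones. At 72h they summed to 32.53 to 50.99 against 19.19 to 26.64 CPM. Of these 4 genes, *Top2a* alone was called lower in Kaede-red cells at 72h. *Mki67* alone was called lower at 72h than at 24h within Kaede-red cells, and none was called at 24h or over both times. The lists for eosinophils, B cells, dendritic cells, tumour epithelium, T and NK cells and the cells gated out each stayed at or under 5.807 CPM in every library. Of the 6 dendritic cell genes 2 were tested, *Ccr7* and *Cd209a*. *Ccr7* was called higher in Kaede-red cells at 24h (means of 0 against 1.638 CPM) and over both times, and *Cd209a* was not called. *Cd4*, the 1 tested of 5 T and NK cell genes, was called higher in Kaede-red cells over both times. The part of these cells, and of the *Rn45s* share, in the results that follow was not tested beyond the fit with the *Rn45s* share given below.

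In the GRCm38 (mm10) annotation the 6 members are protein coding genes at *Arg1* chr10:24915221-24927484 on the minus strand and, on the plus strand, *Arg2* chr12:79130777-79156301, *Nos2* chr11:78920787-78960254, *Slc7a2* chr8:40862396-40922308, *Ass1* chr2:31470207-31520672 and *Odc1* chr12:17544794-17551505. The deposited values count reads over the exons of a gene, whose union measured 2228 bases for *Arg1*, 1428 for *Arg2*, 4412 for *Nos2*, 9135 for *Slc7a2*, 2414 for *Ass1* and 3405 for *Odc1*. Some of these reads have more than 1 possible source. *Ass1* and the processed pseudogene *Gm5424* held the same count in 15 of 16 libraries, with 5481 and 5479 reads in all, so reads of the gene and of the pseudogene could not be told apart and every *Ass1* value carries this limit. *Arg2* overlaps *Vti1b* and *Gm48780* on the other strand, *Slc7a2* overlaps the non-coding *Gm26584* on the other strand, and *Odc1* holds the small nucleolar RNA *Gm22748* on its own strand. Whether strand was used in the counting was not given in the sources used here.

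The RefSeq promoter table (GRCm38.p6) held 2 of the 6 members, *Ass1* and *Odc1*, the genes that stand at the entry to arginine resynthesis and at the exit to polyamines. Each window is 300 bases long and spans the start of the gene. Windows were searched on both strands for the E-box CACGTG, the letters read by MYC and related factors, for the GC box GGGCGG, the core of the site read by SP1, and for the TATA box TATAAA. Capitals mark E-boxes and GC boxes, which do not overlap each other here, and a GC box on the minus strand reads CCGCCC.
Ass1 promoter, chr2:31470020-31470319, plus strand: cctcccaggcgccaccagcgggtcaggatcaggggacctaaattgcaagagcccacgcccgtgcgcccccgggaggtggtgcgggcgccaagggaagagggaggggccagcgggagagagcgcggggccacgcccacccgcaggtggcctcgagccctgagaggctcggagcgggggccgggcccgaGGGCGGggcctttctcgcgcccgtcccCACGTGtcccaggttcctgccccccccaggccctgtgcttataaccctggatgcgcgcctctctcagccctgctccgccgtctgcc
Odc1 promoter, chr12:17544623-17544922, plus strand: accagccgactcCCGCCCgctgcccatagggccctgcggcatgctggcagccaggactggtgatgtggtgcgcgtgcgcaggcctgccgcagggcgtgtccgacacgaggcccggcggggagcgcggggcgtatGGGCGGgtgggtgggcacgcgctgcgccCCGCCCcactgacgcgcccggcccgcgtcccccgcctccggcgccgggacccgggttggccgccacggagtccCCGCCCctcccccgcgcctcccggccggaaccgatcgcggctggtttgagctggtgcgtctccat
The *Ass1* window held 1 E-box and 1 GC box, and the *Odc1* window held 4 GC boxes and no E-box. Neither held the TATA box letters. Of 32851 promoters of the same length, 7.15% held an E-box, 35.7% a GC box and 13.6% a TATA box. These matches describe the letters in the window and were not linked to any level below.

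Per kilobase of exon, the scale on which genes can be set side by side, *Arg1* and *Ass1* were the most abundant members and *Slc7a2* the least. *Arg1* stood at 16.3 ± 8.66 CPM per kb (SD, n = 4) in Kaede-green cells of 24h and 36.3 ± 5.59 in Kaede-red ones, and at 10.5 ± 4.02 and 13.3 ± 3.83 at 72h. *Ass1* stood between 9.88 and 13.8 CPM per kb in the means of the 4 groups. The group means of *Odc1* were 2.92 to 5.57 CPM per kb, those of *Arg2* 1.22 to 3.88 and those of *Nos2* 1.08 to 2.14. These values depend on exon lengths from GENCODE M21, whose symbols differ in part from those of the counts, as for *Castor2*, counted as *Gatsl2*. In plain CPM *Nos2* had the higher mean in each group, with group means of 4.76 to 9.46 against 1.74 to 5.54 for *Arg2*. *Slc7a2* had group means of 0.0660 to 0.213 CPM per kb. *Arg1* stood clear of *Ass1* in Kaede-red cells at 24h. In the other 3 groups the library ranges of these 2 genes overlapped. *Ass1* was there at 12.0 ± 3.52 CPM per kb in Kaede-green libraries of 24h, 10.7 ± 3.59 in those of 72h and 13.8 ± 2.55 in Kaede-red libraries of 72h.

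**Figure D1:**
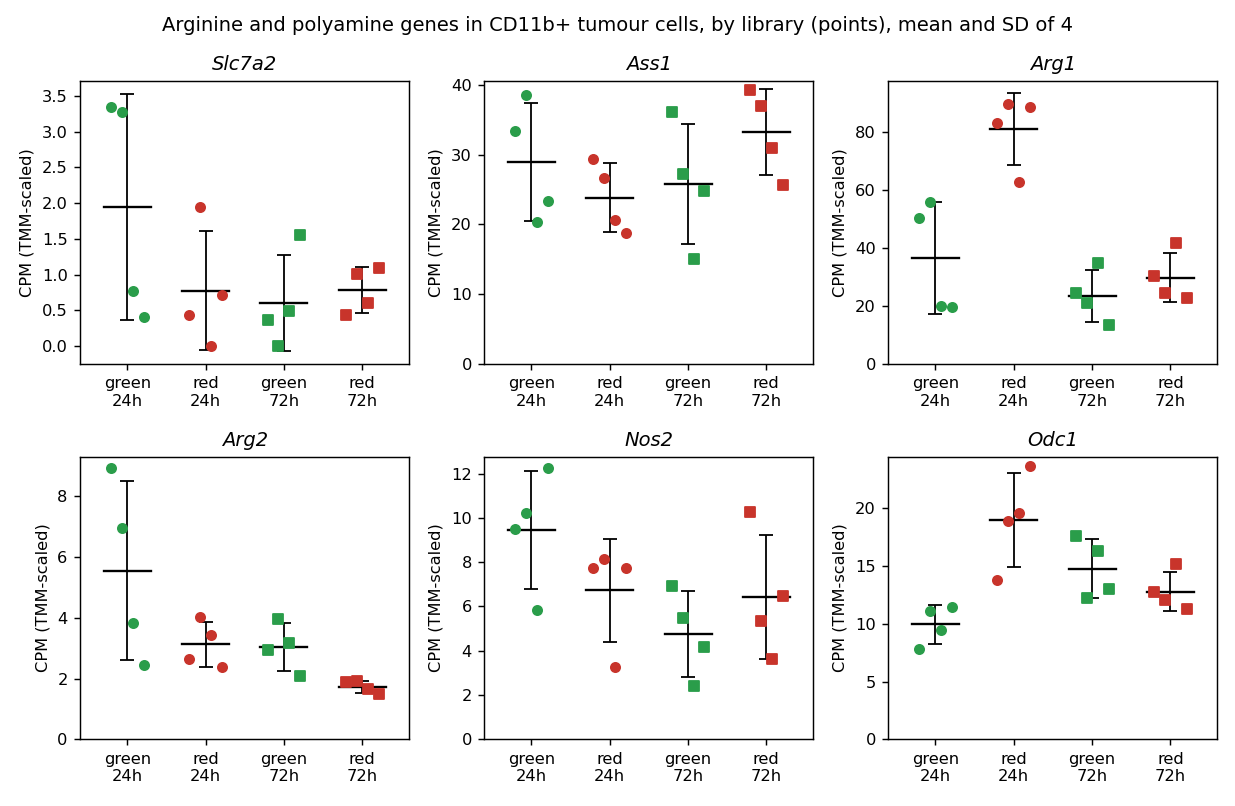
Level of each of the 6 genes in every library, in TMM-scaled CPM (linear axis), split by Kaede colour, with circles for 24h and squares for 72h, with the mean and SD of 4 libraries. The 4 Kaede-red libraries at 24h sit between 62.8 and 89.5 CPM for *Arg1* and between 13.8 and 23.6 CPM for *Odc1*, in both cases above the Kaede-green libraries of the same time.

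To see how the genes differed with time spent in the tumour, Kaede-red cells were compared with Kaede-green cells at each time and over both times, with edgeR's quasi-likelihood test and Benjamini-Hochberg adjustment over 9642 tested genes. All 6 members were among the genes tested. At 24h, *Arg1* and *Odc1* were higher in Kaede-red cells, and the other 4 members did not pass the test. At 72h no member passed. Over both times *Arg1* was higher and *Arg2* lower in Kaede-red cells.

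*Arg1*, cytosolic arginase, was at 50.2, 55.7, 19.9 and 19.6 CPM in the Kaede-green libraries at 24h and at 83.0, 89.5, 62.8 and 88.5 CPM in the Kaede-red libraries. The groups did not overlap, and the Kaede-green libraries fell into a higher pair, replicates 1 and 2, and a lower pair. The mean rose from 36.4 ± 19.3 to 81.0 ± 12.4 CPM (SD, n = 4), a log2 fold change of 1.18 (SE 0.29) with an adjusted p of 0.00783 by edgeR. Leaving out 1 library at a time gave 0.95, without Kaede-green replicate 3 (adjusted p = 0.0553), to 1.48, without Kaede-green replicate 2. In a fit that held the *Rn45s* share of each library as a covariate it was 1.32 (adjusted p = 0.0490, edgeR).

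At 72h the same gene was at 24.5, 20.8, 34.8 and 13.3 CPM in Kaede-green and at 30.1, 24.4, 41.6 and 22.7 CPM in Kaede-red libraries. These ranges overlapped. The difference was 0.33 on the log2 scale, with a 95% interval from -0.25 to 0.92 and an adjusted p of 0.476 by edgeR. This result depended on the scaling. When libraries were scaled by their counts outside *Rn45s*, the difference at 72h was 0.93 and was called (adjusted p = 0.00657, edgeR). The median of all tested genes was 0.68 on that scale. With TMM scaling the difference over both times was 0.76 (SE 0.20, adjusted p = 0.00696, edgeR), a call lost when the *Rn45s* share entered the fit (0.91, adjusted p = 0.218). The difference at 72h was lower than that at 24h by 0.85 on the log2 scale (SE 0.40), but this change with time did not pass the test (adjusted p = 0.309, edgeR).

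*Odc1*, the enzyme that commits ornithine to polyamines, was at 7.81, 11.1, 9.43 and 11.5 CPM in Kaede-green and at 13.8, 18.9, 19.6 and 23.6 CPM in Kaede-red libraries at 24h. Every Kaede-red library lay above every Kaede-green one. The mean rose from 9.94 ± 1.67 to 19.0 ± 4.05 CPM (SD, n = 4), a log2 fold change of 0.93 (SE 0.23, adjusted p = 0.0101, edgeR). Without Kaede-red replicate 4 it was 0.80 with an adjusted p of 0.0518, and with the *Rn45s* covariate it was 1.24 with an adjusted p of 0.0124. The 2 members called higher were 2 of 6, whereas 3.22% of all tested genes were called higher and 7.5% in either direction. *Arg1* and *Odc1* were also the members whose groups did not overlap at 24h, as was the case for 12.5% of all tested genes.

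At 72h *Odc1* was at 17.5, 12.2, 16.3 and 13 CPM in Kaede-green and at 12.7, 12.1, 15.1 and 11.2 CPM in Kaede-red libraries. The ranges overlapped, and 3 Kaede-red libraries lay below the median of the Kaede-green ones. Its difference was -0.22 on the log2 scale, with a 95% interval from -0.65 to 0.22. The change of the red-green difference between the times was -1.14 (SE 0.32), with an adjusted p of 0.0685 by edgeR and 0.0109 by DESeq2. In edgeR it also passed without Kaede-red replicate 1 of 24h (-1.26, adjusted p = 0.0410) and when libraries were scaled by their counts outside *Rn45s* (-1.38, adjusted p = 0.0432). No member passed this test in edgeR, where 0.757% of all tested genes did. At an unadjusted p under 0.05 edgeR had 2 members, beside 1476 of the 9642 tested genes. DESeq2 called 1 member, beside 3.33% of all tested genes.

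*Arg2*, mitochondrial arginase, was at 8.92, 6.96, 3.82 and 2.45 CPM in Kaede-green and at 2.64, 4.01, 3.45 and 2.39 CPM in Kaede-red libraries at 24h. The ranges overlapped and the Kaede-green values were widely spread, again with replicates 1 and 2 on top. At 72h the Kaede-green libraries held 2.92, 3.97, 3.16 and 2.08 CPM and the Kaede-red ones 1.88, 1.92, 1.66 and 1.5 CPM, with no overlap. Kaede-red cells differed by -0.79 on the log2 scale at both times (SE 0.39 at 24h and 0.40 at 72h) and passed at neither, with adjusted p-values of 0.235 and 0.174 by edgeR. Over both times together it was -0.79 (SE 0.28) with an adjusted p of 0.0394, so *Arg2* was called lower. This call held in 6 of the 16 fits that left out a library, those without Kaede-green replicate 3 or 4 or Kaede-red replicate 2 or 3 of 24h and without Kaede-green replicate 1 or 4 of 72h, and the adjusted p was highest, 0.104, without Kaede-green replicate 1 of 24h. It passed in 3 of 7 other settings, and was lost with no filter on low counts (-0.67, adjusted p = 0.158), with the *Rn45s* covariate (-0.79, adjusted p = 0.632), when libraries were scaled by their counts outside *Rn45s* (adjusted p = 0.995) and when *Lars2* and *Mir6236* were left out of those totals too (-0.58, adjusted p = 0.111). *Arg2* rested on 6 to 17 counts per Kaede-green library and 11 to 76 per Kaede-red library.

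Over both times 2 of 6 members were called, 1 in each direction, beside 20.3% of all tested genes, of which 10% higher and 10.3% lower. At 72h 0 of 6 were called by edgeR and by DESeq2, with 0 at an unadjusted p under 0.05, beside 16.8% of all tested genes. The 1 member whose groups did not overlap at 72h, *Arg2*, stood beside 22.6% of all tested genes.

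The ratio of *Arg1* to *Arg2* within a library does not depend on the scaling. It was 3.61, 5.13, 3.33 and 5.13 per kb of exon in Kaede-green and 20.2, 14.3, 11.7 and 23.7 in Kaede-red libraries at 24h. At 72h it was 5.37, 3.35, 7.05 and 4.09 in Kaede-green and 10.3, 8.16, 16 and 9.75 in Kaede-red libraries. All 8 Kaede-red libraries thus had a higher ratio than all 8 Kaede-green ones. *Arg1* was called higher and *Arg2* lower over both times in these same libraries, so the separation adds no independent evidence. *Arg2* had 6 to 17 counts per Kaede-green library. How often other pairs of genes separate the colours was not counted. The ratio of *Arg1* to *Nos2*, the pair that competes for arginine, was 10.5, 10.8, 6.72 and 3.17 in Kaede-green and 21.3, 21.8, 38.1 and 22.6 in Kaede-red libraries at 24h, with no overlap. At 72h it was 6.98, 7.48, 28.3 and 6.31 in Kaede-green and 5.80, 9.03, 22.7 and 6.94 in Kaede-red libraries, and the groups overlapped, each with 1 library, replicate 3, far above the rest. These ratios are descriptions and were not tested.

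**Figure D2:**
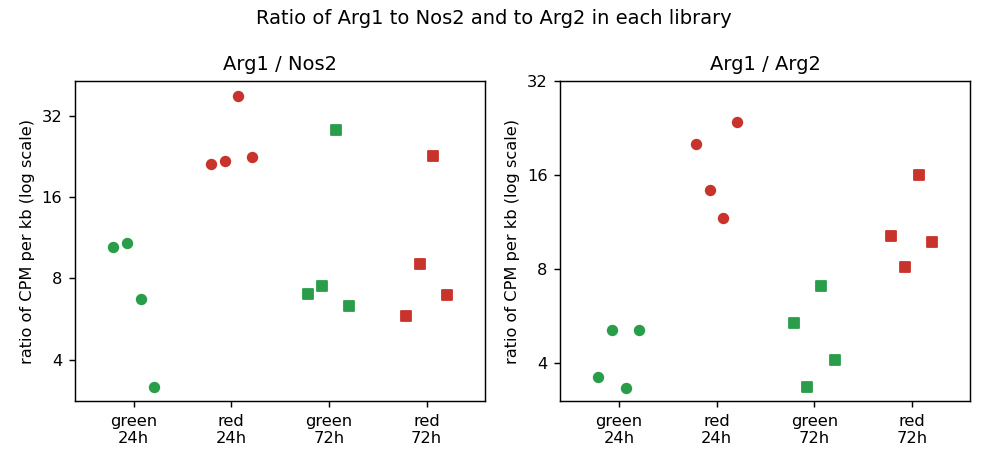
Ratio of *Arg1* to *Nos2* (left) and of *Arg1* to *Arg2* (right) in each library, per kb of exon and on a log axis, split by Kaede colour, with circles for 24h and squares for 72h. The lowest Kaede-red value of the *Arg1* to *Arg2* ratio, 8.16, lies above the highest Kaede-green value, 7.05.

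*Nos2*, inducible nitric oxide synthase, was at 9.48, 10.2, 5.86 and 12.3 CPM in Kaede-green and at 7.73, 8.15, 3.27 and 7.75 CPM in Kaede-red libraries at 24h. At 72h it was at 6.94, 5.50, 2.43 and 4.16 CPM in Kaede-green and at 10.3, 5.35, 3.63 and 6.49 CPM in Kaede-red libraries. The ranges of Kaede-red and Kaede-green cells overlapped at both times, and replicate 3 was the lowest library in each of the 4 groups. The log2 fold change of Kaede-red against Kaede-green cells was -0.44 (95% interval -1.13 to 0.26) at 24h and 0.51 (-0.21 to 1.22) at 72h. Neither passed the test, nor did the change of 0.94 between them (SE 0.49, adjusted p = 0.356, edgeR).

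*Ass1*, read together with *Gm5424*, was at 33.5, 38.5, 20.4 and 23.3 CPM in Kaede-green and at 29.3, 26.6, 20.7 and 18.7 CPM in Kaede-red libraries at 24h. At 72h it was at 36.2, 27.2, 15.1 and 24.7 CPM in Kaede-green and at 39.3, 36.9, 31.0 and 25.6 CPM in Kaede-red libraries. The groups overlapped at both times. Kaede-red cells differed by -0.26 (SE 0.24) at 24h and by 0.38 (SE 0.24) at 72h on the log2 scale, and neither passed the test.

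*Slc7a2*, the cationic amino acid transporter, was near the limit of detection. At 24h it had 6, 8, 3 and 1 counts in Kaede-green and 5, 16, 0 and 11 counts in Kaede-red libraries. At 72h it had 1, 0, 2 and 6 counts in Kaede-green and 11, 40, 4 and 52 counts in Kaede-red libraries. The count of 0 allows a level of up to 0.544 CPM in Kaede-red replicate 3 at 24h and up to 0.916 CPM in Kaede-green replicate 2 at 72h, where 3 counts set the limit and only counting error is covered. Scaled levels were 3.35 and 3.28 CPM in Kaede-green replicates 1 and 2 at 24h and 1.95 CPM or less in the other libraries. The log2 fold changes of -1.19 (SE 0.80) at 24h and 0.36 (SE 0.85) at 72h did not pass the test, and their 95% intervals ran from -2.81 to 0.43 and from -1.37 to 2.08.

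**Figure D3:**
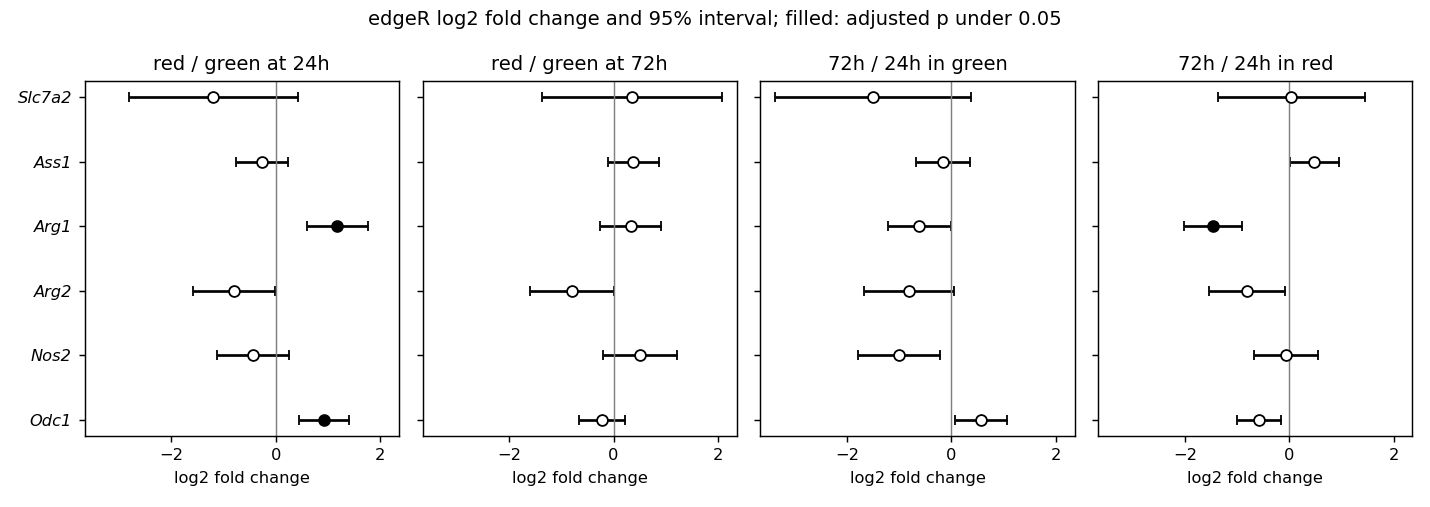
Log2 fold change (points) and 95% interval (bars) of the 6 genes from edgeR, for Kaede-red against Kaede-green cells at 24h and 72h and for the change from 24h to 72h within each colour, with filled points for an adjusted p under 0.05. The filled points are *Arg1* at 1.18 and *Odc1* at 0.93 in the first panel and *Arg1* at -1.46 in the last.

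The change from 24h to 72h was then tested within each colour. These comparisons use the same libraries as the red-green comparisons, so they are not independent of them. In Kaede-red cells *Arg1* fell from 81.0 ± 12.4 CPM at 24h to 29.7 ± 8.53 CPM at 72h (SD, n = 4), and the lowest library at 24h, at 62.8 CPM, lay above the highest at 72h, at 41.6 CPM. This was a log2 fold change of -1.46 (SE 0.28, adjusted p = 0.00168, edgeR). The 16 fits without 1 library gave -1.65 to -1.35, and the *Rn45s* covariate gave -1.39 (adjusted p = 0.0156, edgeR). The 1 of 6 members called stood beside 8.68% of all tested genes, and the 2 members with no overlap, *Arg1* and *Arg2*, beside 20.6%.

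*Odc1* averaged 19.0 ± 4.05 CPM at 24h and 12.8 ± 1.67 CPM at 72h (SD, n = 4) among the Kaede-red libraries. The groups overlapped only through Kaede-red replicate 1 at 24h, at 13.8 CPM, and replicate 3 at 72h, at 15.1 CPM. The difference of -0.58 (SE 0.20) on the log2 scale had an adjusted p of 0.0683 by edgeR and 0.0123 by DESeq2. *Arg2* averaged 3.12 ± 0.747 and 1.74 ± 0.197 CPM, with a log2 fold change of -0.81 (SE 0.35) and an adjusted p of 0.155 by edgeR and 0.0428 by DESeq2. *Ass1* was at 0.48 (SE 0.23, adjusted p = 0.206, edgeR), *Nos2* at -0.06 (SE 0.30) and *Slc7a2* at 0.04 (SE 0.69), and none of these 3 passed in edgeR. DESeq2 called 3 members here, *Arg1*, *Odc1* and *Arg2*, beside 13.1% of all tested genes.

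In Kaede-green cells 0 of 6 members and 0% of all tested genes were called by edgeR between 24h and 72h. DESeq2 called 13 of the 9642 genes and no member, and at an unadjusted p under 0.05 edgeR had 835 genes and 3 members. These 3 were *Nos2*, with means of 9.46 ± 2.67 and 4.76 ± 1.92 CPM (SD, n = 4) and a log2 fold change of -1.0 (SE 0.38, adjusted p = 0.448, edgeR), *Odc1*, with means of 9.94 ± 1.67 and 14.8 ± 2.56 CPM and 0.56 (SE 0.24, adjusted p = 0.507), and *Arg1*, with means of 36.4 ± 19.3 and 23.3 ± 8.95 CPM and -0.61 (SE 0.30, adjusted p = 0.573). The highest *Odc1* library at 24h, at 11.5 CPM, lay below the lowest at 72h, at 12.2 CPM, which made it the 1 member with no overlap, beside 3% of all tested genes. *Arg2* was at -0.82 (SE 0.42), *Ass1* at -0.16 (SE 0.25) and *Slc7a2* at -1.51 (SE 0.92).

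In the order of group means, *Arg1* was highest in Kaede-red cells at 24h, clear of the next group, followed by Kaede-green cells at 24h, Kaede-red cells at 72h and Kaede-green cells at 72h, whose ranges overlapped from one to the next. *Arg2* ran from Kaede-green cells at 24h down to Kaede-red cells at 72h, and only the last step, from Kaede-green to Kaede-red cells at 72h, had no overlap. *Odc1* was highest in Kaede-red cells at 24h and lowest in Kaede-green cells at 24h, and each group overlapped the next in order. For *Nos2*, *Ass1* and *Slc7a2* every neighbouring pair of groups overlapped.

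The wider pathway was read from 63 listed genes in 11 steps, of which 40 were tested, the 6 members among them. *Amd1* and *Amd2* carried the same counts in all 16 libraries and are 1 measurement. Several called pathway genes beside *Slc7a7*, given below, also overlap other genes. *Nosip* overlaps *Prrg2* on the other strand and *Oat* overlaps *Fgfr2* on its own strand. *Aldh4a1* overlaps *Gm21969* and *Mir7020*, and *Oaz1* overlaps *Mir1982*, each on its own strand. *Gch1* overlaps the processed pseudogenes *Gm18811* and *Gm49134*. Over both times 15 of the 40 were called, 7 higher and 8 lower in Kaede-red cells, beside 20.3% of all tested genes (10% higher, 10.3% lower). At 24h 7 were called (5 higher, 2 lower), at 72h 9 (5 higher, 4 lower), from 24h to 72h 3 in Kaede-red cells (1 higher, 2 lower, beside 8.68% of all tested genes), and none in Kaede-green cells or in the change of the difference by edgeR, where 7 had an unadjusted p under 0.05 in each case and DESeq2 called 0 and 2. Of all tested genes, 3.22% were called higher and 4.28% lower at 24h, and 8.06% and 8.76% at 72h. In Kaede-green cells 835 of the 9642 tested genes had an unadjusted p under 0.05 in edgeR, and DESeq2 called 13. In the change of the difference these numbers were 1476 and 321. The median log2 fold change of the 40 genes over both times was -0.02, beside 0.06 for all tested genes.

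Among arginine transporters, *Slc3a2*, the heavy chain that carries several amino acid transporters to the membrane, was higher in Kaede-red cells at both times. At 24h it averaged 34.9 ± 7.38 CPM in Kaede-green against 52.5 ± 5.54 CPM in Kaede-red libraries, a log2 fold change of 0.60 (SE 0.19, adjusted p = 0.0441, edgeR), and 33.2 ± 2.02 and 48.1 ± 4.64 CPM at 72h, one of 0.53 (SE 0.18, adjusted p = 0.0413). The call over both times held without each library in turn, while that at 24h held in 3 and that at 72h in 8 of the 16 such fits. *Slc7a7*, its partner in the export of cationic amino acids, was called at 72h (1.16, SE 0.37, adjusted p = 0.0255), in 12 of 16 such fits, and it overlaps *Oxa1l* on the other strand. *Slc7a1*, the widely expressed importer, was at 0.50 (SE 0.32) at 24h and -0.34 (SE 0.30) at 72h and was not called. In the urea cycle step, *Asl*, which completes arginine resynthesis after *Ass1*, was at 0.01 and 0.02.

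Of the nitric oxide step, *Nosip*, which encodes a protein that binds nitric oxide synthases, was higher in Kaede-red cells over both times (1.11, SE 0.27, adjusted p = 0.00356, edgeR) and at 72h (1.18, adjusted p = 0.0240), the latter in 13 of 16 fits without 1 library. *Gch1* and *Pts*, enzymes that make tetrahydrobiopterin, the cofactor of nitric oxide synthases, were lower over both times, at -0.74 (SE 0.21, adjusted p = 0.00928) and -0.97 (SE 0.32, adjusted p = 0.0292). *Pts* kept its call in 10 of 16 such fits. *Gch1* was also called at 72h, in 13 of 16, with means of 14.8 ± 2.12 CPM in Kaede-green against 7.64 ± 2.18 CPM in Kaede-red libraries (SD, n = 4). *Nos2* itself was not called in any comparison.

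The branches that use ornithine or arginine for other products held *Gatm*, *Oat* and *Aldh4a1*. *Gatm*, the first enzyme of creatine synthesis, averaged at 24h 2.28 ± 0.825 CPM in Kaede-green against 6.33 ± 1.09 CPM in Kaede-red libraries (log2 fold change 1.44, SE 0.35, adjusted p = 0.00835, edgeR) and 3.12 ± 1.13 and 8.04 ± 1.76 CPM at 72h (1.31, SE 0.31, adjusted p = 0.00268), and all 8 Kaede-red libraries lay above all 8 Kaede-green ones. Of the 9642 tested genes, 283 had no overlap between the colours over both times, in either direction, and *Slc3a2* was also 1 of them. *Oat*, which turns ornithine towards proline and glutamate, was called over both times at 0.75 (SE 0.27, adjusted p = 0.0469), and *Aldh4a1*, of the same branch, at 1.94 (SE 0.72, adjusted p = 0.0448). *Oat* kept its call in 1 and *Aldh4a1* in 3 of the 16 fits that left out a library, and *Aldh4a1* had at most 4 counts in any Kaede-green library.

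Of the 3 tested genes among the antizymes and their inhibitors, 1 was lower in Kaede-red cells at each time. *Oaz1*, the antizyme that sends ODC1 to degradation, was that gene and averaged at 24h 61.5 ± 17.2 CPM in Kaede-green against 37.5 ± 2.37 CPM in Kaede-red libraries, a log2 fold change of -0.71 (SE 0.21, adjusted p = 0.0334, edgeR), and 48.4 ± 6.49 and 31.6 ± 7.70 CPM at 72h, one of -0.63 (SE 0.21, adjusted p = 0.0333). Over both times its call held without each library in turn, at 24h in 10 and at 72h in 11 of the 16 fits. The other two, *Oaz2* and *Azin1*, were at -0.03 and -0.02 at 24h and at -0.42 and -0.14 at 72h. Of the 3 tested genes of polyamine breakdown, 1 was called lower at each time, not the same one. *Smox*, spermine oxidase, was lower at 24h (-0.94, SE 0.22, adjusted p = 0.00655) and at -0.37 (SE 0.22) at 72h. *Sat1*, which acetylates spermidine and spermine for breakdown and export, was lower at 72h, where it averaged 142 ± 22.9 CPM in Kaede-green against 70.8 ± 7.95 CPM in Kaede-red libraries (-1.01, SE 0.19, adjusted p = 0.000208). At 24h it was at -0.17 (SE 0.18). *Paox*, the oxidase of acetylated polyamines, was at 0.14 (SE 0.63) at 24h and -0.24 (SE 0.54) at 72h. *Sat1* also fell from 24h to 72h in Kaede-red cells (-0.90, SE 0.18, adjusted p = 0.00297), beside *Arg1*, and both calls held without each library in turn.

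Downstream, *Sms*, spermine synthase, was at 72h lower in Kaede-red cells (-1.31, SE 0.33, adjusted p = 0.00448, edgeR), and *Amd1* (with *Amd2*) and *Srm*, which supply and use decarboxylated S-adenosylmethionine for spermidine, were not called. *Eif5a*, the translation factor that spermidine modifies to hypusine, was lower over both times at -0.40 (SE 0.12, adjusted p = 0.0205), a call lost without Kaede-red replicate 1 at 24h (adjusted p = 0.0520). *Atp13a2*, the lysosomal polyamine exporter, was higher at 24h (1.71, SE 0.36, adjusted p = 0.00204) and at 72h (1.53, SE 0.30, adjusted p = 0.000478), with means of 3.25 ± 1.36 and 10.9 ± 3.28 CPM at 24h and 5.86 ± 3.84 and 17.3 ± 2.06 CPM at 72h (SD, n = 4). Among arginine sensors, *Castor2*, listed as *Gatsl2*, rose from 24h to 72h in Kaede-red cells (1.76, SE 0.56, adjusted p = 0.0427), from 0.501 ± 0.336 to 1.88 ± 0.237 CPM, a call kept in 8 of 16 fits without 1 library. With libraries scaled by counts outside *Rn45s* it was 1.70 (adjusted p = 0.0742, edgeR) and did not pass. With *Lars2* and *Mir6236* also left out of the totals it was 1.70 and fell just short (adjusted p = 0.05001, edgeR).

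When libraries were scaled by their counts outside *Rn45s* with no TMM factor, the fold changes as a whole shifted upwards in Kaede-red cells. The median of all tested genes moved from 0.06 to 0.82 over both times, from 0.05 to 0.93 at 24h and from 0.03 to 0.68 at 72h on the log2 scale. On that scale 20 of the 40 pathway genes were called higher and 0 lower at 24h, beside 48.2% of all tested genes called, and 11 and 0 at 72h, beside 37.6%. The sign of several lower genes changed with this shift, and over both times *Oaz1* was at 0.09, *Gch1* at 0.05, *Smox* at 0.12, *Sat1* at 0.19 and *Eif5a* at 0.37, the last called higher. Relative to the median of all genes they lay at -0.73, -0.78, -0.70, -0.64 and -0.46, beside -0.67, -0.74, -0.66, -0.59 and -0.40 after TMM scaling. Relative to the median at 24h, *Arg1* was at 1.19, *Odc1* at 0.86 and *Arg2* at -0.80.

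With the *Rn45s* covariate the pathway calls of 24h were *Arg1*, *Odc1*, *Gatm* and *Smox*, that over both times was *Gatm* alone, and none was made at 72h. Calls over all tested genes also fell, from 1959 to 156 over both times, from 723 to 206 at 24h and from 1622 to 101 at 72h. Over both times *Arg2* was at -0.79 in this fit, *Oaz1* at -0.61, *Gch1* at -1.04, *Eif5a* at -0.34 and *Atp13a2* at 0.83.

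**Figure D4:**
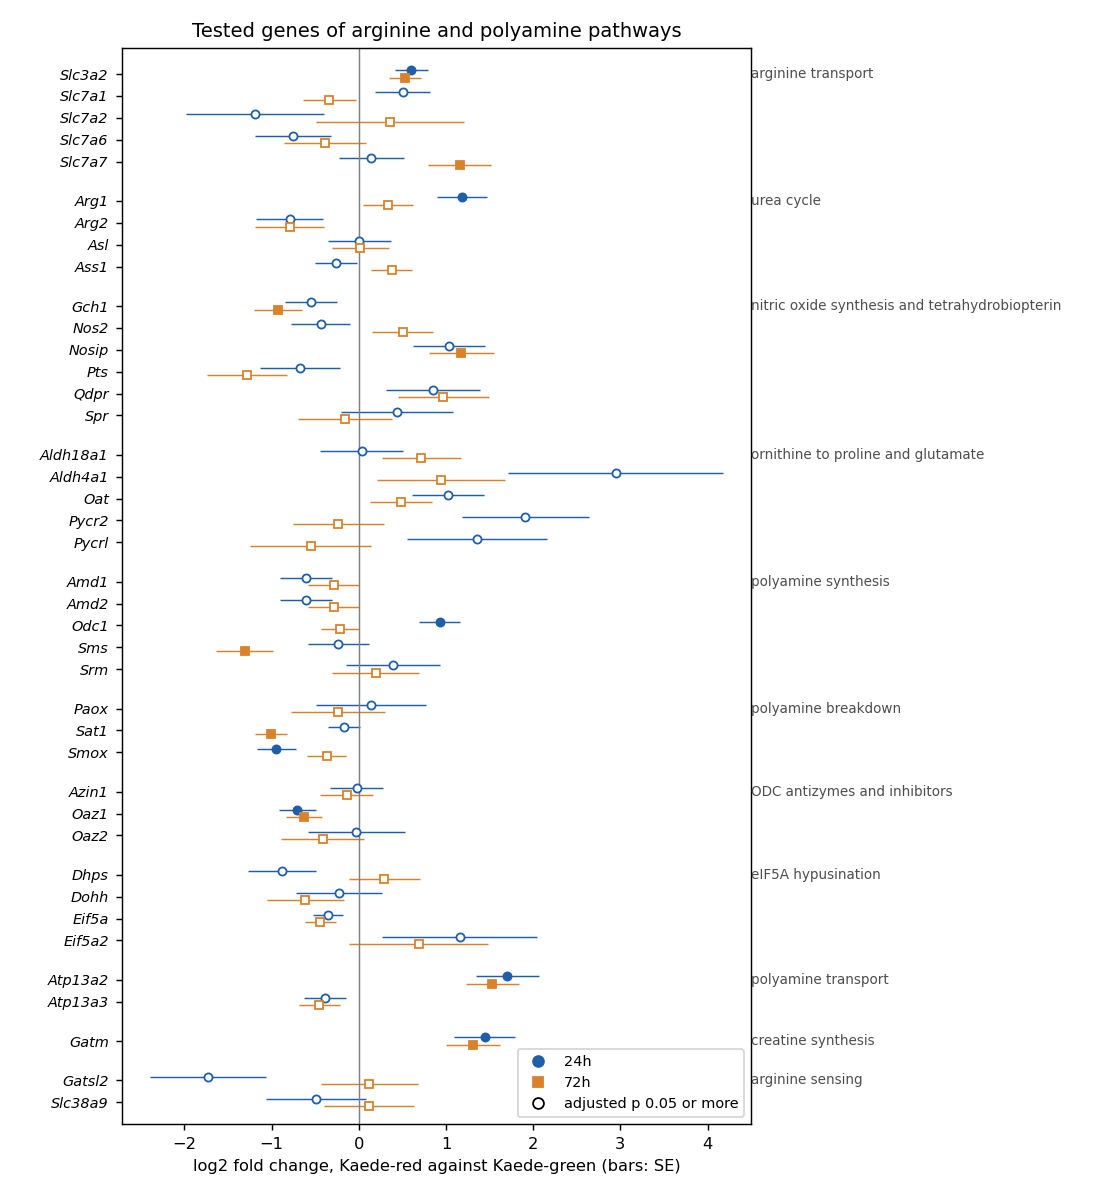
Log2 fold change of Kaede-red against Kaede-green cells with its standard error for the 40 tested pathway genes, grouped by step, at 24h (circles) and 72h (squares), with filled symbols for an adjusted p under 0.05 in edgeR after TMM scaling. *Gatm* and *Atp13a2* lie between 1.31 and 1.71 at both times, while *Arg1* and *Odc1* are filled at 24h and open at 72h.

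The genes whose levels followed each member most closely over the 16 libraries were taken from tested genes with a mean log2 CPM of at least 4. All libraries share the same groups, so r is also given after the group means were subtracted. *Arg1* was followed by *Emp1* (r = 0.891, within groups 0.815), *Mdm2* (0.862, 0.759) and *Cd83* (0.812, 0.442). *Odc1* was followed by *Rgs1* (0.777, 0.257), *Ctsl* (0.733, 0.272) and *Spp1* (0.679, 0.427), a likeness that lay mostly between groups. *Nos2* was followed by *Cd274*, which encodes PD-L1 (0.843, 0.855), *Tiparp* (0.68, 0.667) and *Tgtp1* (0.655, 0.611), and here the likeness was as high within groups. *Arg2* was followed by *Nt5c3* (0.891, 0.83), *Gpx1* (0.891, 0.811) and *H3f3b* (0.889, 0.741). *Ass1* was followed, after its twin *Gm5424* at 1, by *Ppp1r18* (0.840, 0.809) among the genes reported, and *Slc7a2*, at its few counts, by *Parp12* (0.806, 0.83), *Jund* (0.771, 0.725) and *Ly6c2* (0.738, 0.709). These values are descriptions over libraries that also share depth and composition.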

How the data were processed

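Total RNA of sorted CD11b+ cells was sequenced in 16 libraries, 4 per group (stranded pico-input kit, paired reads). According to the methods and labels, the authors trimmed reads with Trim Galore, checked them with FastQC, aligned them to mm10 with HISAT2 and deposited whole-number counts per gene from featureCounts, with no normalization. Strand and multi-mapping settings were not given in the sources used here. No column of values was left out, and the combined table, which repeats the single files, was not used.

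Counts were fitted in edgeR 4.0.16 (R 4.3.3) with filterByExpr defaults (9642 of 24421 genes kept), TMM factors, a mean for each group and a quasi-likelihood test, with Benjamini-Hochberg adjustment over all tested genes and calls at an adjusted p under 0.05. The common dispersion was 0.0702. SE is the log2 fold change over the root of F, and 95% intervals use the t distribution. DESeq2 1.42.0 was an alternative, beside other scalings, no filter, only the groups compared, the *Rn45s* share as covariate, a replicate term and leaving out each library. The code was tested on simulated data. Exon lengths came from GENCODE M21 and promoters from RefSeq. CPM use the effective library size, and a prior count of 2 was added for log2 CPM.

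The 6 members, the pathway and marker lists were chosen with earlier results of these data known. All members, each pathway gene called in any comparison, the defining gene of a step, and the 3 genes most like each member were named. For *Ass1*, 1 of these 3 is not reported here. No 2 libraries of a group were copies, since the chi-square per gene was at least 3.22. P-values set the group differences against the spread between these libraries, estimated with information shared over genes. The main fit treats Kaede-green and Kaede-red libraries as independent, although whether they shared tumours was not given.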

Additional observations from a re-analysis of the deposited data

Results flagged for a closer look

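In 1 of the 24 combinations of a member and a group, a library stood apart from the other 3. *Nos2* was at 3.27 CPM in Kaede-red replicate 3 at 24h, beside 7.73 to 8.15 CPM in the other Kaede-red libraries of that time, a gap that took 0.941 of the range on the log2 scale. Chance flags about 1 in 20 such groups. This library also had the fewest counts outside *Rn45s* of the Kaede-red libraries, 758192, and its 18 counts of *Nos2* leave a wide counting error. The part of depth in this value was not tested.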

How the results depend on the processing

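Of the calls of members, *Arg1* and *Odc1* at 24h and *Arg1* between the times in Kaede-red cells passed in all 8 other settings, *Arg1* over both times in 6 of 7 and *Arg2* over both times in 3 of 7. Scaling by counts outside *Rn45s* called 4 members over both times, beside 63.5% of all genes. At 72h it called 3, *Arg1* (0.93), *Nos2* (1.18) and *Ass1* (1.04), beside 37.6%. In the change of the difference it called 1, beside 1.09%. Pathway genes called on that scale were 20 at 24h and 2 in the change. On that scale Kaede-red against Kaede-green log2 fold changes changed sign for *Slc7a2* over both times (0.39), at 24h for *Arg2* (0.13), *Nos2* (0.43) and *Ass1* (0.65), and at 72h for *Odc1* (0.42), all with a raised median of all genes. Without a filter 1 member was called over both times, beside 10.2% of the genes tested in that fit. With the *Rn45s* share as covariate 0 members and 1 pathway gene were called over both times, 4 pathway genes at 24h and 0 at 72h, beside 1.62%, 2.14% and 1.05% of all genes, and the sign changed for *Nos2* (-0.15) and *Ass1* (-0.15) over both times and for *Slc7a2* (-1.44) and *Odc1* (0.22) at 72h. Between the times in Kaede-red cells DESeq2 called 3 members and 5 pathway genes, beside 13.1% of all genes. In the change it called 1 and 2, beside 3.33%. The fit of only the groups compared called 2 and 6 in Kaede-red cells, beside 15.9% of the genes tested in that fit.

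Values near 0 changed sign elsewhere. *Nos2* over both times was -0.019 in DESeq2, and between the times in Kaede-red cells 0.018 without a filter. *Slc7a2* between the times in Kaede-red cells was -0.026 in DESeq2, -0.012 with RLE factors, -0.00258 with scaling outside *Rn45s*, -0.00118 with scaling outside *Rn45s*, *Lars2* and *Mir6236*, an alternative added after seeing the data, and -0.83 with the covariate. The change of the difference of *Arg2* was -0.028 in DESeq2, -0.023 with RLE factors, -0.27 and -0.057 on the 2 total scalings.

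The replicate numbers were not stated to pair libraries. Same-numbered libraries had correlations of -0.0183 to 0.153, 1 of 8 over 0.1, and 2 of 8 libraries correlated best with their own number. A replicate block called 2, 2, 0, 0, 1 and 0 members in the 6 comparisons, the same numbers as without it. Beside these stood 19.2%, 7.18%, 16.3%, 0%, 9.1% and 0.809% of all tested genes. It called 14 pathway genes over both times in place of 15. Under the replicate block *Nos2* over both times was -0.051 and the change of *Arg2* -0.027.

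Leaving out each library in turn called 1 to 2 members over both times and at 24h, 0 at 72h and in Kaede-green cells, 1 to 2 in Kaede-red cells and 0 to 1 in the change. The pathway counts were 10 to 15 over both times, 4 to 7 at 24h, 5 (without Kaede-green replicate 3 or Kaede-red replicate 4 of 72h) to 11 at 72h, 2 to 4 in Kaede-red cells and 0 to 1 in the change. Signs changed within -0.12 to 0.14 for *Nos2*, -0.82 to 0.13 for *Slc7a2* and -0.054 to 0.16 for *Ass1* over both times, -0.050 to 1.45 for *Slc7a2* at 72h, -0.38 to 0.012 for *Ass1* in Kaede-green cells, -0.37 to 0.11 for *Nos2* and -0.26 to 0.86 for *Slc7a2* in Kaede-red cells, and -0.28 to 0.23 for the change of *Arg2*. The causes were not tested. Kaede-green libraries, with 468092 to 912689 counts outside *Rn45s*, limit the precision, most for *Slc7a2* and *Arg2*.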

Other observations

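Within groups, after subtracting the group means, the 2 arginases varied together over the 16 libraries (r = 0.684 for *Arg1* and *Arg2*), although their differences between Kaede-red and Kaede-green cells had opposite signs. *Nos2*, whose enzyme makes citrulline from arginine, and *Ass1*, whose enzyme starts the return of citrulline to arginine, also varied together within groups (r = 0.601). *Arg1* and *Nos2* did so very little (r = 0.00142 within groups and 0.141 over all libraries). *Odc1* had r from -0.267, with *Arg2*, to 0.183, with *Arg1*, among the other members within groups. These are descriptions over libraries that share depth and composition.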
